A study of Mus musculus with 6 samples.

Results

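The 9 genes Bnip3, Bnip3l, P4ha1, P4ha2, Car9, Adm, Kdm3a, Ndrg1 and Ankrd37 are classical targets of the hypoxia-inducible factors that encode no enzyme of glycolysis. They were taken by their symbols from a table of 55367 genes, in which each symbol had 1 row. LLC cells, a line grown from a Lewis lung carcinoma of the mouse and labelled wild type, had been kept for 46 h with 5 µM STM2457 or with DMSO alone. STM2457 blocks the catalytic site of METTL3, the enzyme that places N6-methyladenosine on messenger RNA, and DMSO is the solvent control. There were 3 libraries of STM2457-treated cells and 3 of DMSO-treated cells, all from cells in medium with serum at 5% CO2. The labels name no hypoxic incubation. They do not tell whether each library is a culture of its own, so the p-values cover the spread between these libraries, part or all of which may be technical.

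Cells sense oxygen through prolyl hydroxylases of the EGLN family, which mark the HIF-alpha subunits for capture by the VHL ubiquitin ligase and for degradation. When oxygen is short the marking slows, HIF-alpha pairs with ARNT, and the pair binds short hypoxia response elements in DNA with the core ACGTG or GCGTG. The targets serve different ends: removal of mitochondria (Bnip3 and Bnip3l), collagen synthesis (P4ha1 and P4ha2), control of pH (Car9), vascular signalling (Adm), histone demethylation (Kdm3a) and the stress response (Ndrg1). Several of them are raised in many carcinomas.

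Reads assigned to genes numbered 17877627 to 17917208 in the STM2457 libraries and 17671712 to 17679480 in the DMSO libraries. Levels below are normalised reads, that is reads recovered from the deposited log2 values and divided by a size factor for each library. Limma was run on the deposited values of the 12618 genes averaging 10 reads or more, out of 24138 with any read, with a Benjamini-Hochberg adjusted p under 0.05 as the threshold. The deposited values are shrunken, so folds were taken from limma-voom on the recovered reads. Mettl3, the target of the compound, had 499, 451 and 513 normalised reads with STM2457 and 469, 601 and 540 with DMSO, and these groups overlapped (limma adjusted p = 0.15). Mettl3 was called lower with upper-quartile centring (limma adjusted p = 0.04) and without DMSO replicate 1 (limma adjusted p = 0.0089). The epithelial markers Epcam and Cdh1 had 0 reads in all 6 libraries, and Krt8 and Krt18 reached at most 8 reads. The leukocyte marker Ptprc had 0 or 1. Of 17 markers of cell types 5 were tested, and 1 was lower and 1 higher, both named after their values were seen. The mesenchymal marker Vim fell to 46167 ± 607 normalised reads with STM2457, against 52927 ± 1298 with DMSO (SD, n = 3 each, limma adjusted p = 4.1e-05). The stromal marker Pdgfrb rose to 166 ± 21.2 with STM2457, against 65 ± 5.71 with DMSO (limma adjusted p = 2.0e-09). The other stromal markers tested, Acta2 and Col1a1, did not pass (limma adjusted p = 0.6 and 0.34). Col1a1 was called lower with upper-quartile centring (limma adjusted p = 0.047). The part of the Vim and Pdgfrb shifts in the results below was not tested. Bulk RNA cannot tell fewer cells that express a gene from less RNA per cell.

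All 9 genes passed the low-value filter, and all 9 fell after STM2457. In each of them every STM2457 library lay below every DMSO library. Over all tested genes 25.7% were called lower and 30.7% higher, and 28.4% had every STM2457 library below every DMSO library. The median fold of the 9 genes was 0.659 of the DMSO level, and that of all tested genes was 1.008. Kdm3a changed least, at 0.828 of DMSO, and Ankrd37 most, at 0.259. Ankrd37 and Car9 were the 2 genes of the 9 that fell at least 2-fold, a size reached by 2.87% of all tested genes. Car9 stood short of 2-fold without STM2457 replicate 2, at 0.564 of DMSO, and without DMSO replicate 1, at 0.539.

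**Figure D1:**
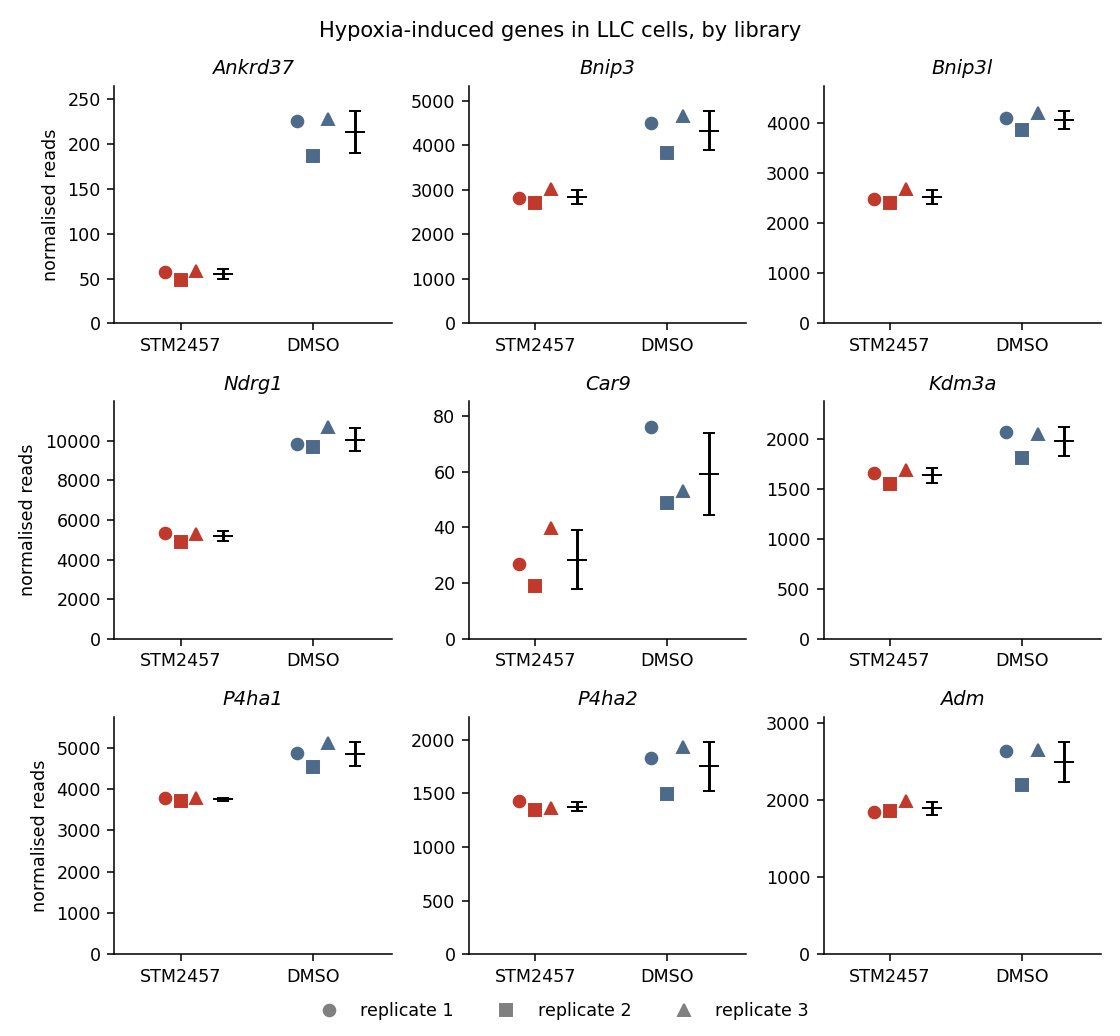
Normalised reads of the 9 genes in each library, with STM2457 in red left of DMSO in blue, on linear axes that start at 0. Circles, squares and triangles are replicates 1, 2 and 3, and the bars beside them show the mean and SD (n = 3). Whether replicate numbers pair libraries between groups is not known. No STM2457 point reaches a DMSO point in any of the 9 panels, and the square of replicate 2 is the lowest DMSO point throughout.

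The core was read in promoters: the 250 bases before the transcription start are shown for 4 of the genes, Ankrd37 and Car9, which fell most, and Bnip3 and Adm, which were well expressed and fell less. Sequences are RefSeq promoter windows on GRCm38.p6, written 5′ to 3′ along the gene's strand. Capitals mark ACGTG and GCGTG, the 2 forms of the core, and their reverse complements CACGT and CACGC.
Ankrd37 (chr8:45999851-46000100, minus strand): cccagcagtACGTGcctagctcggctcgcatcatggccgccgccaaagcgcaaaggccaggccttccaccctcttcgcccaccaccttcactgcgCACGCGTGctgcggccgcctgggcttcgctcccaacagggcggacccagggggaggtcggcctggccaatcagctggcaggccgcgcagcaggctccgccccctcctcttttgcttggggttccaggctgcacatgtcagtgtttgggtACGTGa
Bnip3 (chr7:138909507-138909756, minus strand): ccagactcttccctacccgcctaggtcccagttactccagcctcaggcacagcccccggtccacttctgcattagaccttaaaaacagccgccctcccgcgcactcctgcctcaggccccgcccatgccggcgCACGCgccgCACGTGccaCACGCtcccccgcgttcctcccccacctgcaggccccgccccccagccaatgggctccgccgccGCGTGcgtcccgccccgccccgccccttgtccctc
Car9 (chr4:43506776-43507025, plus strand): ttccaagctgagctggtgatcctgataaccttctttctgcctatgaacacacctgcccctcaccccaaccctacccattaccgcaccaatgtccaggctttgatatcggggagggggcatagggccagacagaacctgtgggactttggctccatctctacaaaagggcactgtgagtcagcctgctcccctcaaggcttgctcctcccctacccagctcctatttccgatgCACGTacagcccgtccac
Adm (chr7:110627407-110627656, plus strand): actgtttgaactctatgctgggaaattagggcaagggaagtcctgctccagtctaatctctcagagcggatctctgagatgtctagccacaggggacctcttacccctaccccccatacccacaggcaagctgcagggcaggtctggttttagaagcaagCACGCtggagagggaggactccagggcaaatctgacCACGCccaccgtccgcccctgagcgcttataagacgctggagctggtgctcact

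Windows of 300 bases, 250 before and 50 after the start, were found for 7 of the 9 genes, and none was used for Bnip3l and Ndrg1. With both strands searched, 5 of the 7 held ACGTG and 6 held GCGTG, and each held at least 1 of them. Ankrd37 held 2 of each, its ACGTG copies at 241 and 6 bases before the start. The adjacent GCGTG copies of Ankrd37, on opposite strands, overlap by 2 letters. Bnip3 held a CACGTG palindrome, counted once on each strand as ACGTG at 108 and 107 bases before the start. It also held 3 GCGTG copies, at 117, 99 and 35 bases before the start. Car9 held 1 ACGTG at 18 bases before the start and Adm held 2 GCGTG, at 90 and 54 bases before it. In P4ha1 there were 1 ACGTG and 2 GCGTG, in P4ha2 2 of each, and in Kdm3a, which has 3 windows, 1 GCGTG in 1 of them. The core is short and common. Of 11995 windows of tested genes, from 9384 genes, 26% held ACGTG, 51.4% held GCGTG and 63% held either. These shares are per window and the counts of the 7 are per gene, so they are not directly comparable. Among windows of genes called lower 64.1% held either, and among those of genes called higher 64.6%. A match describes these letters and does not show binding.

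**Figure D2:**
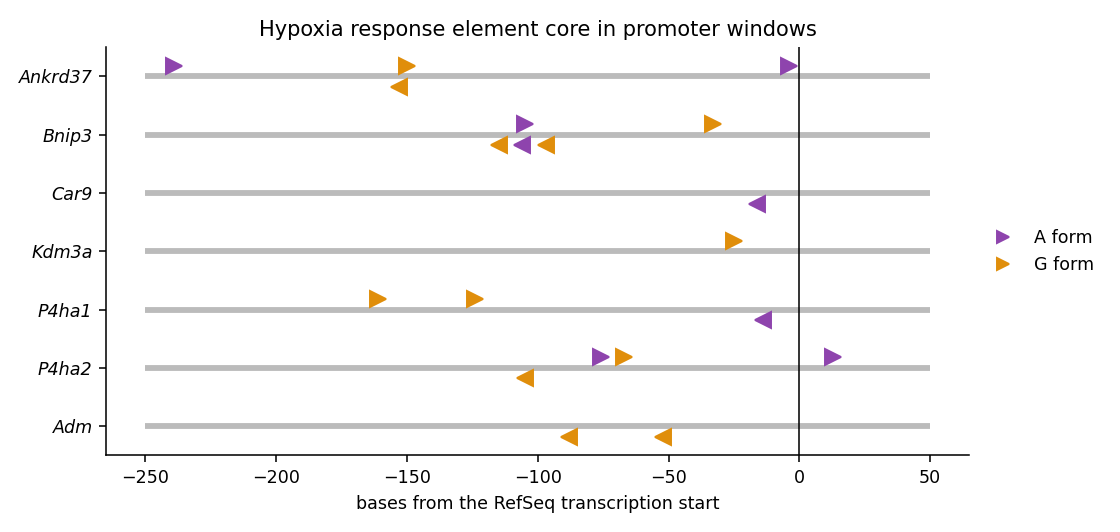
Positions of the A and G forms of the hypoxia response element core in the promoter windows of the 7 genes with one, in bases from the RefSeq start at 0. Triangles above a line point right and are on the gene's strand, and those below point left and are on the opposite strand. Most sites of Bnip3 lie between 117 and 99 bases before the start, with another at 35, and Car9 and Kdm3a have 1 site each.

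Bnip3 and Bnip3l (also called Nix) encode related proteins of the outer mitochondrial membrane that bind LC3-type proteins and so draw mitochondria into autophagosomes. Bnip3 had 2818, 2698 and 3014 normalised reads in STM2457 replicates 1 to 3, and 4497, 3826 and 4656 in DMSO replicates 1 to 3. The highest STM2457 library lay well under the lowest DMSO library, which was replicate 2. Its mean was 2843 ± 160 with STM2457 and 4326 ± 440 with DMSO (SD, n = 3 each), 0.659 of DMSO with a 95% confidence interval of 0.583 to 0.746. On the deposited scale the log2 difference was -0.35 (SE 0.04, limma adjusted p = 1.5e-04). Bnip3l had 2472, 2405 and 2675 normalised reads with STM2457 and 4098, 3862 and 4202 with DMSO. Its DMSO libraries were close together and all far above the STM2457 libraries. It fell to 2518 ± 141 with STM2457, against 4054 ± 174 with DMSO (SD, n = 3 each), a fold of 0.621 (95% interval 0.584 to 0.660, limma adjusted p = 4.2e-12).

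The ratio of Bnip3 to Bnip3l reads within a library does not depend on how libraries are scaled. It was 1.140, 1.122 and 1.127 with STM2457 and 1.097, 0.991 and 1.108 with DMSO. Every STM2457 ratio lay above every DMSO ratio, but by little. The difference of the mean log2 ratios was 0.09, and the two-sided exact permutation p was 0.10, the smallest that 3 against 3 libraries allow. Without DMSO replicate 2 the difference was 0.03. In the single DMSO library with the ratio of 0.991, replicate 2, Bnip3 was below Bnip3l.

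Other mitophagy genes moved both ways. Of 11 tested besides these receptors, 4 were lower and 4 higher, and with upper-quartile centring 6 were lower and 3 higher. The lower count was 2 without STM2457 replicate 2 and also without STM2457 replicate 3. Over all tested genes the shares were 25.7% lower and 30.7% higher, to be read beside this count and those of the families below. No family was tested as a set. Sqstm1, an autophagy adaptor named after its values were seen, stood at 0.925 of DMSO (limma adjusted p = 0.038), a call lost without any single STM2457 library or DMSO replicate 2 (limma adjusted p = 0.065 to 0.26). Nipsnap2, whose product signals mitochondrial damage to autophagy, fell to 0.768 of DMSO (limma adjusted p = 6.5e-07), and Pink1, the kinase that starts ubiquitin-driven mitophagy, fell to 0.743 (limma adjusted p = 1.5e-05). Fundc1, a hypoxia-responsive receptor of the same membrane, measured 524 ± 30.1 normalised reads with STM2457 and 589 ± 15.1 with DMSO (SD, n = 3 each, limma adjusted p = 0.019), a call lost without STM2457 replicate 2, STM2457 replicate 3 or DMSO replicate 3 (limma adjusted p = 0.083, 0.085 and 0.067). The receptors Bcl2l13 and Phb2 rose to 1.166 and 1.128 of DMSO (limma adjusted p = 2.0e-04 and 3.4e-04). The ubiquitin ligase gene Mul1 rose to 1.415 of DMSO (limma adjusted p = 2.0e-06).

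P4ha1 and P4ha2 encode alternative catalytic alpha subunits of collagen prolyl 4-hydroxylase, which makes the 4-hydroxyproline that holds the collagen triple helix together. P4ha1 had 3771, 3705 and 3771 normalised reads with STM2457 and 4860, 4536 and 5123 with DMSO. The STM2457 libraries were nearly equal, the DMSO libraries were more spread, and the groups did not overlap. It fell to 3749 ± 38.3 with STM2457, against 4840 ± 294 with DMSO (SD, n = 3 each), a fold of 0.776 (95% interval 0.732 to 0.822, limma adjusted p = 5.6e-08).

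P4ha2 had 1426, 1342 and 1363 normalised reads with STM2457 and 1829, 1498 and 1932 with DMSO. DMSO replicate 2 was the low DMSO library and came near the STM2457 libraries without reaching them. The mean was 1377 ± 44 with STM2457 and 1753 ± 227 with DMSO (SD, n = 3 each), a fold of 0.790 (95% interval 0.678 to 0.920), with a log2 difference of -0.19 (SE 0.05, limma adjusted p = 0.012). This call was lost when DMSO replicate 1 was left out (log2 difference -0.17, limma adjusted p = 0.062).

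The ratio of P4ha1 to P4ha2 was 2.644, 2.761 and 2.766 with STM2457 and 2.657, 3.028 and 2.652 with DMSO. The groups overlapped, since DMSO replicate 2 was above all STM2457 libraries and the other DMSO libraries lay inside the STM2457 range. The mean log2 ratios differed by -0.03 (two-sided exact permutation p = 0.80), and by 0.04 without DMSO replicate 2.

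The third alpha subunit moved the other way. P4ha3 averaged 144 ± 6.89 normalised reads with STM2457 and 96.3 ± 8.78 with DMSO (SD, n = 3 each), a rise to 1.492 of DMSO (limma adjusted p = 8.7e-05). The reads of P4ha3 per read of P4ha1, a pair chosen after its values were seen and given with no test, were 0.036, 0.039 and 0.040 with STM2457 and 0.021, 0.022 and 0.017 with DMSO. P4ha3 was thus the minor form in all 6 libraries. P4hb, the shared beta subunit and protein disulfide isomerase, rose to 1.088 of DMSO (limma adjusted p = 0.0075), a call lost with upper-quartile centring (limma adjusted p = 0.092).

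Of the 14 other tested genes of collagen hydroxylation and cross-linking, 3 were lower and 7 higher. Plod2, the hypoxia-induced lysyl hydroxylase of collagen telopeptides, fell to 0.760 of DMSO (limma adjusted p = 5.6e-05), and the lysyl oxidase relative Loxl4 fell to 0.752 (limma adjusted p = 1.7e-05). The lysyl hydroxylase Plod3 rose to 1.203 of DMSO (limma adjusted p = 3.7e-06). P3h1 and Crtap, which encode partners in the collagen prolyl 3-hydroxylation complex, rose to 1.275 and 1.257 (limma adjusted p = 2.4e-06 and 2.8e-07).

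Car9 encodes carbonic anhydrase IX, an enzyme on the outer face of the cell membrane that hydrates CO2 and so helps cells export acid. It was the lowest of the 9 genes, with 26.8, 18.9 and 39.6 normalised reads with STM2457 and 76.1, 48.6 and 53.2 with DMSO. The highest STM2457 library, replicate 3, came close to the lowest DMSO library, replicate 2, but did not pass it. The mean was 28.4 ± 10.5 with STM2457 and 59.3 ± 14.7 with DMSO (SD, n = 3 each). The fold of 0.472 had the widest interval of the 9 genes, 0.335 to 0.665. At this level the deposited values are strongly shrunken, and their log2 difference was -0.18 (SE 0.04, limma adjusted p = 6.0e-04).

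Of 10 other tested genes for carbonic anhydrases and pH transporters, 4 were lower and 1 higher. With upper-quartile centring 8 were lower, and without any single STM2457 library 2 were, with 1 higher each time. Car12, the other hypoxia-linked carbonic anhydrase of the cell surface, had a mean of 8.27 ± 2.51 normalised reads with STM2457 and 14.7 ± 4.09 with DMSO (SD, n = 3 each, limma adjusted p = 0.065), and was called lower without DMSO replicate 2 (limma adjusted p = 0.028). The bicarbonate transporter gene Slc4a7 fell to 0.714 of DMSO (limma adjusted p = 1.1e-06). The mitochondrial form Car5b stood at 0.721 of DMSO (limma adjusted p = 0.01), a call lost without STM2457 replicate 1 (limma adjusted p = 0.058). The carbonic anhydrase relative Car11 stood at 0.493 (limma adjusted p = 0.017), lost without STM2457 replicate 2 or 3 or DMSO replicate 2 or 3 (limma adjusted p = 0.052 to 0.11). The lactate transporter Slc16a1 stood at 0.940 (limma adjusted p = 0.046). Where single libraries were left out, this call held without DMSO replicate 2 and was lost without each of the other 5 (limma adjusted p = 0.051 to 0.17). The Slc16a1 call was also lost with a replicate block, without the low-value filter, and without trend and robust priors (limma adjusted p = 0.056, 0.1 and 0.085).

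Adm encodes adrenomedullin, a secreted peptide that widens vessels and acts on endothelium. It had 1838, 1852 and 1985 normalised reads with STM2457 and 2634, 2191 and 2647 with DMSO. DMSO replicate 2 was the low library of its group and still above all STM2457 libraries. Adm fell to 1891 ± 81.2 with STM2457, against 2491 ± 260 with DMSO (SD, n = 3 each), a fold of 0.762 (95% interval 0.683 to 0.850, limma adjusted p = 5.4e-04).

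In the rest of the adrenomedullin system 8 genes were tested, 4 lower and 2 higher. The higher call of Crcp, named after its values were seen (1.128 of DMSO, limma adjusted p = 0.027), was lost with upper-quartile and median centring and without STM2457 replicate 1, DMSO replicate 1 or DMSO replicate 3 (limma adjusted p = 0.09 to 0.19). Calcrl, the receptor for adrenomedullin and CGRP, fell to 0.678 of DMSO (limma adjusted p = 1.7e-07). The scavenging receptor Ackr3 fell to 0.506 (limma adjusted p = 3.3e-07). Among the proteins that pair with Calcrl, Ramp1 had 0 reads in all 6 libraries, Ramp2 averaged 41 ± 9.23 normalised reads with STM2457 and 21 ± 3.47 with DMSO (SD, n = 3 each, limma adjusted p = 6.8e-04), and Ramp3 averaged 26.1 ± 4.73 with STM2457 and 24.3 ± 7.61 with DMSO (limma adjusted p = 0.72). Pam, which amidates the peptide, fell to 0.921 of DMSO (limma adjusted p = 0.0086, lost at 0.063 without STM2457 replicate 2), and Mme, a membrane peptidase that cleaves peptide hormones, fell to 0.682 (limma adjusted p = 3.6e-04).

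Kdm3a encodes a JmjC-domain demethylase of histone H3 lysine 9, an oxygen-using enzyme. It had 1660, 1547 and 1688 normalised reads with STM2457 and 2071, 1805 and 2042 with DMSO. The groups did not overlap, but the highest STM2457 library, replicate 3, came close under the lowest DMSO library, replicate 2. Kdm3a fell to 1632 ± 74.6 with STM2457, against 1973 ± 146 with DMSO (SD, n = 3 each), a fold of 0.828 (95% interval 0.771 to 0.890, limma adjusted p = 8.7e-05).

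Its closest relative Kdm3b measured 1401 ± 35.7 normalised reads with STM2457 and 1409 ± 35.9 with DMSO (SD, n = 3 each), and the difference did not pass the test (limma adjusted p = 0.9). The third relative, Jmjd1c, stood at 0.929 of DMSO (limma adjusted p = 0.037), a call lost without any single STM2457 library or DMSO replicate 1 (limma adjusted p = 0.061 to 0.13). Of the 19 tested JmjC genes besides Kdm3a, 8 were lower and 5 higher, with 2 higher under median centring and 3 higher without STM2457 replicate 2. Among those that fell were the lysine 27 demethylases Kdm6b, at 0.648 of DMSO (limma adjusted p = 5.4e-11), and Kdm6a, at 0.716 (limma adjusted p = 8.1e-07). Kdm4b, another hypoxia target, fell to 0.676 (limma adjusted p = 1.6e-08) and Kdm7a fell to 0.501 (limma adjusted p = 7.2e-08). The ribosomal hydroxylase gene Riox1 rose to 1.419 of DMSO (limma adjusted p = 2.1e-06).

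Ndrg1 encodes a cytoplasmic stress-response protein that is induced by hypoxia and by iron loss. It had 5346, 4896 and 5282 normalised reads with STM2457 and 9807, 9654 and 10702 with DMSO. Both groups were tight and the gap between them was wide. Ndrg1 fell to 5175 ± 244 with STM2457, against 10054 ± 566 with DMSO (SD, n = 3 each), a fold of 0.515 (95% interval 0.485 to 0.547, limma adjusted p = 4.0e-14). The calls of the other 3 NDRG genes depended on the centring. Ndrg3 measured 1196 ± 3.72 normalised reads with STM2457 and 1246 ± 20.4 with DMSO (SD, n = 3 each, limma adjusted p = 0.26), and was called lower with upper-quartile centring (limma adjusted p = 0.034). Ndrg2 measured 29.8 ± 10.5 with STM2457 and 36 ± 3.32 with DMSO (limma adjusted p = 0.28), and was called lower with median centring (limma adjusted p = 0.047). Ndrg4 stood at 1.173 of DMSO (limma adjusted p = 0.021), a call lost with upper-quartile centring (limma adjusted p = 0.091) and without STM2457 replicate 2, STM2457 replicate 3 or DMSO replicate 3 (limma adjusted p = 0.054 to 0.11).

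Ankrd37 encodes a small ankyrin-repeat protein with no well-defined function that is strongly induced by HIF in many cell types. It had 57.6, 48.7 and 58.5 normalised reads with STM2457 and 225, 187 and 228 with DMSO. Even the lowest DMSO library was far above every STM2457 library. Ankrd37 fell to 54.9 ± 5.41 with STM2457, against 213 ± 23.2 with DMSO (SD, n = 3 each), a fold of 0.259 (95% interval 0.212 to 0.318, limma adjusted p = 2.3e-12). It ranked 23rd from the lowest fold among the 12618 tested genes, whereas Car9 ranked 291st and Ndrg1 414th.

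**Figure D3:**
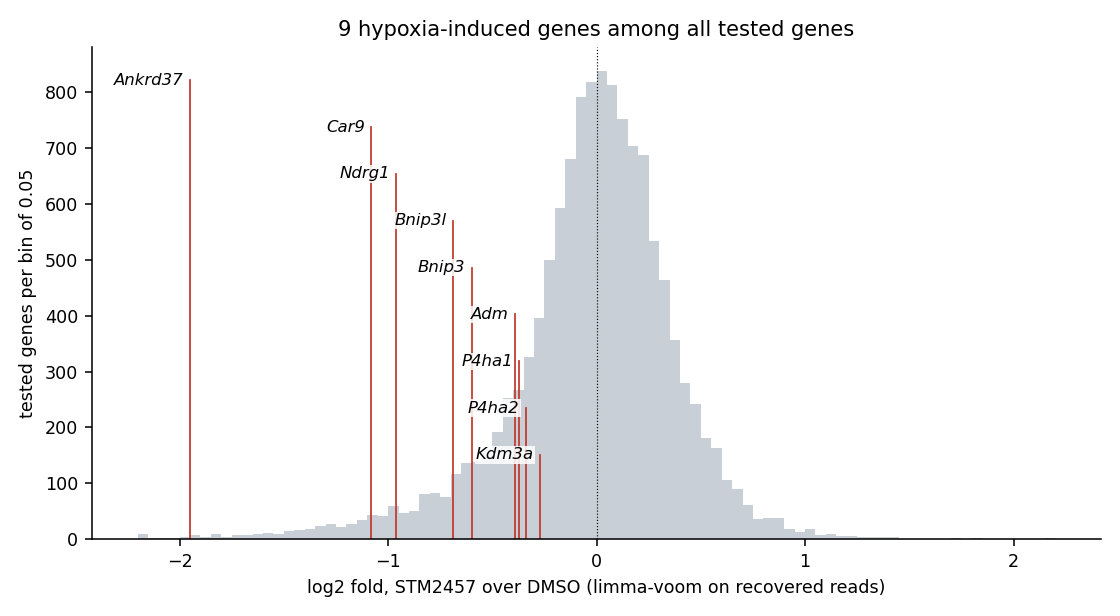
Distribution of log2 folds, STM2457 over DMSO, for the 12618 tested genes by limma-voom on recovered reads, in bins of 0.05, with the 9 genes as red lines. The heights of the red lines only space the labels. All 9 lie left of 0, with Ankrd37 in the far tail and Kdm3a, P4ha2, P4ha1 and Adm within the shoulder of the distribution.

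The exons of 4 of the 9 genes overlap another gene in the annotation (GENCODE M21, GRCm38). No source used here says whether counting used strand, so reads in shared stretches cannot be assigned with certainty. Ankrd37 (chromosome 8, 45996902 to 46005707, minus strand) shares 26.4% of its exon bases with genes on the opposite strand, Ufsp2 and Lrp2bp. Ufsp2 fell as well, to 939 ± 37.1 normalised reads with STM2457, against 1422 ± 86.6 with DMSO (SD, n = 3 each, limma adjusted p = 3.9e-10), while Lrp2bp had at most 4 reads in any library. For Car9 (chromosome 4, 43506966 to 43513729, plus strand) the share is 9.29%, with Gm12454, which had 4.97, 10.9 and 9.91 normalised reads with STM2457 and 23, 14.9 and 31.1 with DMSO. The part of the reads of Ufsp2 and Gm12454 in the Ankrd37 and Car9 results was not tested. For Bnip3 (chromosome 7, 138890836 to 138909519, minus strand) the overlapping Gm45507 had 0 reads in every library. For Ndrg1 (chromosome 15, 66929318 to 66969640, minus strand) the overlapping genes had at most 7 reads. The exons of Bnip3l (chromosome 14, 66985239 to 67008877), P4ha1 (chromosome 10, 59323296 to 59373304), P4ha2 (chromosome 11, 54100095 to 54131665), Kdm3a (chromosome 6, 71588972 to 71632990) and Adm (chromosome 7, 110627661 to 110629820) overlap none.

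The order of levels was read per kilobase of exon, since longer transcripts collect more reads. With STM2457, Bnip3 was highest at 1255 ± 70.4 normalised reads per kilobase, followed by Adm at 1168 ± 50.2 (SD, n = 3), and the libraries of the pair overlapped. P4ha1 at 911 ± 9.32, Ndrg1 at 785 ± 36.9 and Bnip3l at 652 ± 36.5 came next (SD, n = 3), with no overlap between neighbours. P4ha2 and Kdm3a lay lower, at 221 ± 7.05 and 198 ± 9.06, and Ankrd37 at 35.7 ± 3.51 and Car9 at 12.3 ± 4.54 closed the order with STM2457 (SD, n = 3). With DMSO the order was the same except that Ndrg1, at 1524 ± 85.9, stood above P4ha1, at 1176 ± 71.5, and overlapped Adm, at 1538 ± 160 (SD, n = 3). Bnip3 led with DMSO as well, at 1910 ± 194, and Bnip3l stood at 1051 ± 45.2, with no overlap with P4ha1 (SD, n = 3). P4ha2 and Kdm3a, at 281 ± 36.3 and 240 ± 17.8, overlapped with DMSO, and Ankrd37 measured 139 ± 15.1 and Car9 25.8 ± 6.39 (SD, n = 3). Where the length of the longest transcript was used in place of all exons, the order with STM2457 was Bnip3 (1619 normalised reads per kilobase), Adm (1361), Ndrg1 (1278), P4ha1 (927) and Bnip3l (772). On that length the order with DMSO was Ndrg1 (2483), Bnip3 (2464), Adm (1792), Bnip3l (1244) and P4ha1 (1197). The DMSO libraries of Ndrg1 and Bnip3 overlapped there, as did those of Bnip3l and P4ha1.

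The 9 genes also varied together within groups. All 9 had their lowest DMSO value in replicate 2, where 37.2% of tested genes had theirs, and 8 of 9 had their lowest STM2457 value in replicate 2, where 30.2% had theirs. Adm was the exception, with its lowest STM2457 value in replicate 1. The level in DMSO replicate 2 over the mean of DMSO replicates 1 and 3 ran between 0.752 for Car9 and 0.941 for Ndrg1, with a median of 0.836, against 0.998 over all tested genes. The coefficient of variation had a median of 4.71% in STM2457 and 10.2% in DMSO for the 9 genes, and of 4.27% in STM2457 and 5.48% in DMSO for all tested genes. Bnip3l and Car9 were the exceptions to the larger relative spread in DMSO. Without DMSO replicate 2 all 9 genes were still lower, and the folds were 0.243 for Ankrd37, 0.621 for Bnip3, 0.733 for P4ha2 and 0.716 for Adm. What set DMSO replicate 2 apart was not tested.

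**Figure D4:**
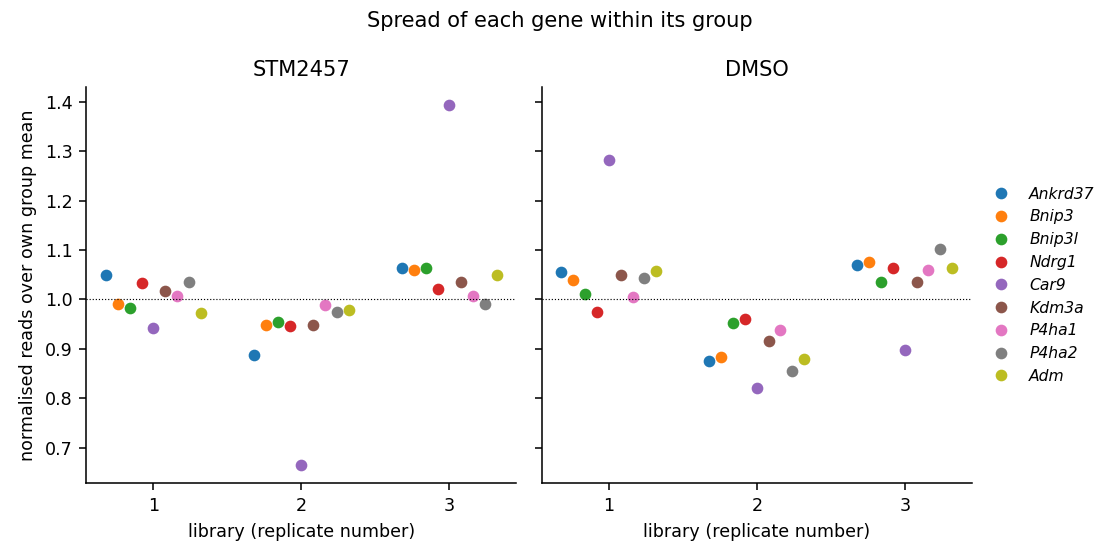
Normalised reads of each gene over the mean of its own group, by library, with STM2457 on the left and DMSO on the right. The dotted line is the group mean. All 9 points of DMSO replicate 2 lie below it, and Car9, the gene with the fewest reads, is the farthest out in both groups.

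Other hypoxia targets fell widely too. Of 38 tested genes on a list of 45, 29 were lower and 3 higher (30 lower and 2 higher without DMSO replicate 2), and their median fold was 0.747. Ddit4, an inhibitor of mTORC1, fell to 871 ± 11.5 normalised reads with STM2457, against 2216 ± 61.8 with DMSO (SD, n = 3 each, limma adjusted p = 8.0e-18). Ccng2, an atypical cyclin, fell to 492 ± 50.3 with STM2457, against 1218 ± 116 with DMSO (limma adjusted p = 4.2e-09). The angiogenic factor Vegfa fell to 0.502 of DMSO (limma adjusted p = 1.1e-10), the glycogen-branching enzyme Gbe1 to 0.623 (limma adjusted p = 2.1e-10), the pyruvate dehydrogenase kinase Pdk1 to 0.635 (limma adjusted p = 4.5e-09) and Insig2, a brake on sterol synthesis, to 0.694 (limma adjusted p = 1.2e-09).

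The 3 higher genes on that list were Tfrc, Plin2 and Cited2. Tfrc, the transferrin receptor, rose to 3746 ± 190 normalised reads with STM2457, against 1406 ± 67.7 with DMSO (SD, n = 3 each, limma adjusted p = 9.4e-18). Plin2, a lipid droplet coat protein, rose to 1.192 of DMSO (limma adjusted p = 7.1e-06). Cited2, which competes with HIF for its coactivators, stood at 1.077 of DMSO (limma adjusted p = 0.025), a call lost with upper-quartile centring (limma adjusted p = 0.21) and without STM2457 replicate 2, STM2457 replicate 3 or DMSO replicate 2 (limma adjusted p = 0.069 to 0.18).

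The genes of the HIF pathway itself split, with 6 of 11 tested lower and 5 higher, and 3 higher with median centring. Hif1a, the oxygen-regulated subunit, fell to 4503 ± 69 normalised reads with STM2457, against 5667 ± 143 with DMSO (SD, n = 3 each), a fold of 0.795 (limma adjusted p = 3.9e-08). Its partner Arnt fell to 0.860 (limma adjusted p = 4.9e-04). Epas1, which encodes HIF-2 alpha, had a mean of 0 normalised reads with STM2457 and 0.334 with DMSO. Among the genes that limit HIF, Vhl fell to 0.776 (limma adjusted p = 1.6e-05), and the prolyl hydroxylases Egln3 and Egln1, themselves HIF targets, fell to 0.632 and 0.787 (limma adjusted p = 4.6e-06 and 0.0061). The Egln1 call was lost without DMSO replicate 1 (limma adjusted p = 0.056). Hif1an, the asparaginyl hydroxylase that blocks coactivator binding, rose to 1.137 of DMSO (limma adjusted p = 0.006), a call lost with median centring (limma adjusted p = 0.054) and without DMSO replicate 3 (limma adjusted p = 0.064). The other higher genes, named after their values were seen, were the prolyl hydroxylase Egln2, at 1.363 of DMSO (limma adjusted p = 1.2e-07), and the HIF coactivators Crebbp, at 1.334 (limma adjusted p = 1.6e-05), and Ep300, at 1.125 (limma adjusted p = 6.6e-04), beside Cited2 above. HIF protein was not measured.

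Of 9377 genes with a mean of at least 100 reads, those whose centred log2 values over the 6 libraries were most like the mean profile of the 9 genes were Tmx4, Ankrd28, Dars and Ampd3, each with a Pearson r of 0.999, and Picalm, with 0.998. The points share the same 6 libraries and the same step between groups, so the values describe likeness only. Ampd3 stood at 0.549 of DMSO, Ankrd28 at 0.741, Tmx4 at 0.743, Picalm at 0.844 and Dars at 0.868. Tmx4, a membrane thioredoxin of the endoplasmic reticulum, had 629, 600 and 639 normalised reads with STM2457 and 857, 782 and 878 with DMSO, and in both groups replicate 2 was its lowest library.

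Since METTL3 methylates adenosines mainly within DRACH motifs, of which GGACT is a common form in DNA letters, the motif was counted in the longest protein-coding transcript of each gene. Bnip3 and Bnip3l held 0 copies. Adm held 5, or 3.60 per kilobase, a density at or above that of 99.5% of tested genes. Ankrd37 held 2, at 2.16 per kilobase, and the other genes lay between 1.38 for Ndrg1 and 1.77 for P4ha2. The median was 1.04 per kilobase over 11013 tested genes, 1.00 over the genes called lower and 1.08 over those called higher. A motif does not show that its adenosine was methylated, and methylation was not measured here.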

How the data were processed

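Per the labels' protocols, TRIzol RNA went into a SMARTER mRNA-Seq kit. The submitters' processing notes name HISAT2 2.2.1, FastQC 0.11.9, featureCounts 2.0.1 (Subread) and DESeq2, and the GRCm38 build. Groups follow the treatment named in each sample's labels. Which annotation and strand setting the authors counted with is not given in the sources.

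The authors deposited log2 values per gene, whose transform no label names. The values have the form of a regularised log2, which pulls each gene towards its mean, most at low counts. It was inverted (ridge penalty 60.22, dispersion 1.899 over the mean plus 0.0111) to recover reads. Within 0.05 reads, 98.1% of values were whole at means of 1 to 500, 89.4% at 500 to 2000, 78.3% at 2000 to 5000 and 59% above, where Ndrg1 lies. A count of 0 allows up to 3 reads, or 2.97 to 3.01 normalised reads here, for counting error only.

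Genes averaging 3.32 or more (the log2 of 10 reads) entered limma (version 3.58.1, under R 4.3.3), with trend and robust priors (statmod 1.5.0), group as the only term, Benjamini-Hochberg adjustment over all 12618 genes and no pseudocount. Folds, 95% intervals and 2-fold calls (also at an adjusted p under 0.05) came from limma-voom on recovered reads. Both fits were also run on simulated counts with 200 changed genes. Each called 89 of 100 genes with a true log2 change of 1, and 12 of 12430 unchanged genes. Far more genes were called in the data (3240 lower and 3868 higher), so the simulation does not give the error rate there. Alternatives were other centrings, filters, priors, scales, a replicate block and leaving out each library.

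The genes, the lists and the tests were chosen with earlier results of these data known. Besides the 9 genes the text names up to 5 genes with the smallest adjusted p and the direct paralogues from the list of each family, up to 6 falling and 4 rising genes among other hypoxia targets, 7 HIF pathway genes, markers, Mettl3, genes that overlap an exon and the 5 genes of most similar profile. Of the list symbols 158 matched directly and 1 (Ero1a, as Ero1l) through a synonym. A gene that this rule names is not reported here.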

Additional observations from a re-analysis of the deposited data

How the results depend on the processing

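Over 15 alternatives, 133 of 134 tests of single genes among the 9 kept their direction and their side of the threshold, and none reversed. The exception was P4ha2 without DMSO replicate 1. With a filter at 100 reads Car9 was not tested, and the other 8 were lower. The median log2 difference of the 9 genes was -0.22 on the deposited scale and -0.29 with that filter. It was -0.60 by limma-voom and on log2(CPM + 1) and log2(CPM + 0.1), which are not shrunken. Leaving out single libraries moved it between -0.28 and -0.20. In the same refits the difference in the log2 ratio of P4ha1 to P4ha2 ran from -0.06 to 0.04, and it reversed without DMSO replicate 2; the cause was not tested. Over all tested genes the split of 3240 lower and 3868 higher depended on centring. It became 4425 lower and 3049 higher with upper-quartile centring and 4621 lower and 2941 higher with median centring, which shift every log2 difference by -0.028 and -0.032. The 9 genes were lower under both. Deviations of same-numbered libraries correlated at 0.05, 0.01 and 0.04 over genes. These values average over all tested genes, so they cannot decide whether replicate numbers pair the libraries. With a replicate block all 9 genes stayed lower, their median was -0.22, and 3226 genes were lower and 3864 higher. The block lowered the limma adjusted p of Bnip3 (1.5e-04 to 3.4e-10), P4ha2 (0.012 to 2.3e-05), Adm (5.4e-04 to 7.8e-07), Car9 and Kdm3a. It raised that of Ankrd37, Bnip3l, Ndrg1 and P4ha1, all still under 0.05. Depth limited Car9 most, with 19 to 76 reads per library. Recovered values of genes above 5000 reads were less often whole, but no value of the 9 genes lay more than 0.21 reads from a whole number.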
